A study of Homo sapiens with 8 samples.

Results

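The cells described here were picked from cultures of the human embryonic stem cell line H1 by transcripts of GABAergic neurons and of the medial ganglionic eminence (MGE). A cell was counted as MGE-type when the deposited matrix held a value of 1 or more for GAD1 or GAD2, and 1 or more for LHX6 or LHX8, and 0 for MKI67, TOP2A, NEUROD2 and NEUROD6. The name states only that this rule was met. Of 43693 cells, 719 met this rule, which is 1.65% (95% exact Clopper-Pearson interval 1.53 to 1.77%). They are compared with 3506 other GABAergic cells, called DLX GABAergic here, which had GAD1 or GAD2 and at least 1 of DLX1, DLX2, DLX5 and DLX6, neither LHX6 nor LHX8, and none of the 4 excluded genes.

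The MGE is a ventral part of the embryonic forebrain whose dividing cells make the transcription factor NKX2-1. Its postmitotic neurons switch on the LIM homeodomain factors LHX6 and LHX8. LHX6 is kept by inhibitory interneurons that migrate tangentially into cortex and striatum and later make somatostatin or parvalbumin, whereas LHX8 is known for the cholinergic and GABAergic projection neurons of the basal forebrain and globus pallidus. GAD1 and GAD2 make GABA from glutamate, MKI67 and TOP2A mark dividing cells, and NEUROD2 and NEUROD6 mark excitatory neurons of the dorsal forebrain.

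The study sequenced single cells of H1-derived 2-D cultures and 3-D organoids with split-pool barcoding, and from the labels it addresses the cell makeup of the cultures and their response to dopamine, cocaine and morphine. The 8 GEO samples are sublibraries of 1 barcoded pool, and every one carries the same label, H1 with dopamine, cocaine, morphine and untreated listed together, so no sublibrary stands for a condition. Conditions are read from 46 culture tags at the start of the cell names, in 9 arrangements. 2DCocu has 12 tags and 3DFusi 10, both with the letters AcCoc, AcMor or Vehic; 2DMono and 3DMono have 6 tags each, with AcDop, AcMor or Vehic; 2DProto2Fjo, 2DProto3Wu and 2DProto4Nic have 2 tags each, and 3DProto1For and 3DProto2Xia 3 each, with no treatment letters. The labels define none of these letters and give no culture age or dose, and they do not say whether numbered tags came from separate cultures, so a p-value over tags measures only the spread between tags. For organoids the protocol pools 2 to 3 per dissociation; all cells come from 1 stem cell line.

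Cells held a median of 12776 counts, MGE-type cells 16460 (range 3824 to 208074) and DLX GABAergic cells 10896. The sublibraries did not differ detectably in their share of MGE-type cells, which lay between 1.499 and 1.94% (chi-square 4.44, 7 degrees of freedom, p = 0.728). Of 41192 barcode combinations, 2393 occurred in more than 1 sublibrary, with 4894 cells, and 20 MGE-type cells shared a combination with another MGE-type cell. A doublet score marked 31 MGE-type cells (4.31%), 305 DLX GABAergic cells (8.70%) and 4211 of all cells (9.64%).

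The values that chose the cells were low. The higher of LHX6 and LHX8 was exactly 1 in 257 of the 719 cells and the higher of GAD1 and GAD2 exactly 1 in 97, while 399 cells had 2 or more for both. Just outside the rule lay 11 cells with an LHX value between 0 and 1, 3 cells with an LHX value and a GAD value between 0 and 1, 250 cells with an LHX value and no GAD, and 215 GAD and LHX cells set aside for an excluded gene, 180 of them for MKI67 or TOP2A and 65 for NEUROD2 or NEUROD6. GAD1 was at 1 or more in 666 MGE-type cells, GAD2 in 416 and both in 363. LHX6 without any LHX8 was found in 215 cells, LHX8 without any LHX6 in 328, both at 1 or more in 168, and 8 cells had 1 of the pair at 1 or more and the other between 0 and 1.

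The 2 LHX genes lie apart in the genome: LHX6 spans chromosome 9, 122202577 to 122229626 on the minus strand, and LHX8 chromosome 1, 75128434 to 75161533 on the plus strand (GRCh38, GENCODE release 29). The stretches of 250 bases before a RefSeq start of each are printed since these genes define the cells, together with that of ROBO3 (chromosome 11, 124865386 to 124881470, plus strand), the gene with the lowest adjusted p in the comparison with DLX GABAergic cells. The sequences are from RefSeq on GRCh38.p14, chr9:122228434-122228683 on the minus strand, chr1:75128184-75128433 on the plus strand and chr11:124865182-124865431 on the plus strand, each 5′ to 3′. Capitals mark TAATTA, a core sequence that many homeodomain proteins bind and that is its own reverse complement, so both strands are searched at once.
LHX6: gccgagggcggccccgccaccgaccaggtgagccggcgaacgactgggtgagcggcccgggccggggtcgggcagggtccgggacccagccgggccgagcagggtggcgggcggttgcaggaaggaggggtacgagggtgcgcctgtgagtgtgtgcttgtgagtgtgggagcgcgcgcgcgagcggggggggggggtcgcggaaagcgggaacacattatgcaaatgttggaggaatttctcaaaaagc
LHX8: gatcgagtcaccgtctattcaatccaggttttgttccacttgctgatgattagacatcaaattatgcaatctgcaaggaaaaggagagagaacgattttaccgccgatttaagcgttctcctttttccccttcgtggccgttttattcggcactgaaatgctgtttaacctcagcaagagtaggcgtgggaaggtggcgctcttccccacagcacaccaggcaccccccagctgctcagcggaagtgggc
ROBO3: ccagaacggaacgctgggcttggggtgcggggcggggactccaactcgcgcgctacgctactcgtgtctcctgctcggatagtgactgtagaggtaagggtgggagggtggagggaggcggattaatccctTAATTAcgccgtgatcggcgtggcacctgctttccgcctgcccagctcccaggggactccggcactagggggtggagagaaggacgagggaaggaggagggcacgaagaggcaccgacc
TAATTA occurred in 1526 of 35116 such windows of all genes (4.35%), in 1 of the 3 ROBO3 windows, in 0 of 3 for LHX6 and in 0 of 2 for LHX8. Among the 20 genes named below by the size of their difference from DLX GABAergic cells, the 7 higher genes found in the table had 23 windows, 2 with TAATTA, and the 7 lower genes found had 11 windows, none with it. The printed ROBO3 window is the 1 of its 3 that holds TAATTA, while those of LHX6 and LHX8 are the first listed for each gene. By the coordinates, the LHX6 window lies inside the gene span given and the ROBO3 window runs past the start of its span. A match of these letters is a description and not a binding site.

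MGE-type cells came mostly from 3 of the 46 tags. 2DProto3Wu1 held 180 among 926 cells, 19.4% (95% exact interval 16.9 to 22.1%), and 2DProto3Wu2 held 328 among 1346, 24.4% (22.1 to 26.8%), together 70.7% of all MGE-type cells. 3DProto2Xia3 held 99 among 1298, 7.63% (6.24 to 9.21%), a further 13.8%. The other 43 tags had 112 among 40123 cells, 0.279% (0.230 to 0.336%), and 15 tags had none. These intervals cover counting error only. The 2 tags of 2DProto3Wu were thus alike in scale, whereas 3DProto2Xia3 stood above the other tags with the same letters, since 3DProto2Xia1 had 9 of 938 (0.960%) and 3DProto2Xia2 2 of 729 (0.274%).

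**Figure D1:**
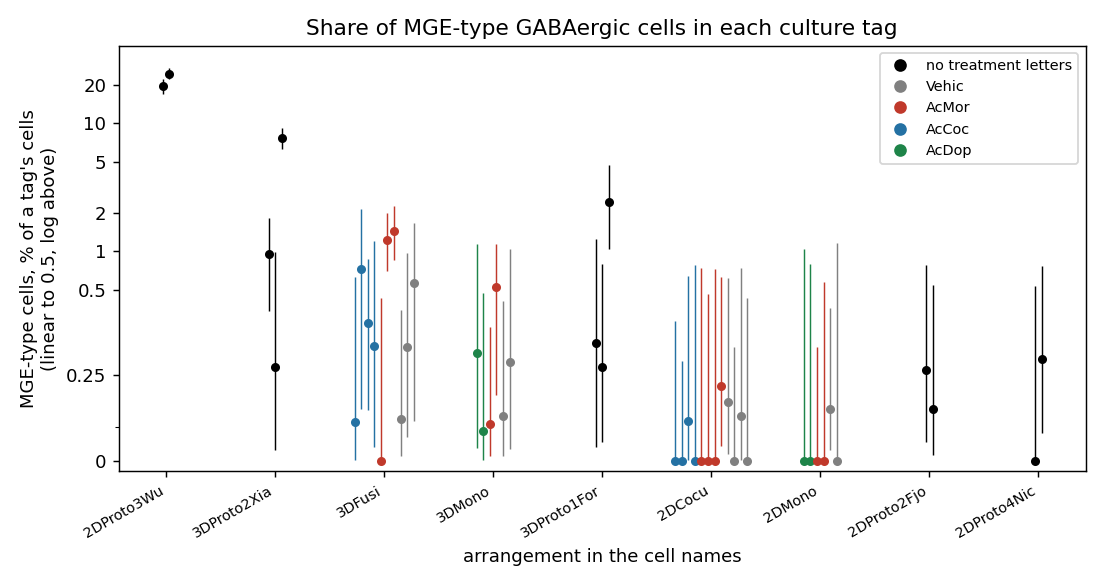
Percent of each culture tag's cells that were MGE-type, 1 point per tag, by arrangement and coloured by treatment letters; the vertical axis is linear to 0.5 and logarithmic above. Both 2DProto3Wu tags lie near 20%, 3DProto2Xia3 at 7.63%, and the next highest tag, 3DProto1For3, at 2.42%.

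Between arrangements, the share was compared over tags with a two-sided exact permutation test within treatment letters, with Benjamini-Hochberg adjustment over 14 share tests. The 10 tags of 3DFusi ranged from 0 to 1.45% (median 0.368%, mean 0.528 ± 0.482% SD) and the 12 of 2DCocu from 0 to 0.218% (median 0%, mean 0.0533 ± 0.0822% SD). Only 1 of the 10 3DFusi tags had no MGE-type cell against 8 of the 12 2DCocu tags, and the ranges overlap. The within-treatment difference was 0.490 percentage points (exact permutation p = 0.000618, adjusted 0.00865), and it was 0.166 points with an adjusted p of 0.0612 when 2 or more counts of GAD and LHX were required. The 6 tags of 3DMono had 0.0884 to 0.529% and those of 2DMono 0 to 0.153%, with 5 of them at 0, a difference of 0.218 points that did not pass (exact permutation p = 0.0185, adjusted 0.130). That difference was 0.0346 points with 2 or more counts and 0.0983 points with cells thinned (exact permutation p = 0.167 and 0.25). Over the treatment letters that they share, 3DFusi and 3DMono differed by 0.352 points and 2DCocu and 2DMono by 0.0271 points (exact permutation p = 0.300 and 0.756, adjusted p = 1 for both). 2DProto3Wu exceeded the 4 tags of 2DProto2Fjo and 2DProto4Nic, which lay between 0 and 0.299%, by 21.7 points, with the smallest p that 2 tags against 4 allow (exact permutation p = 0.0667, adjusted 0.311), and by 13.8 points with 2 or more counts or 11.2 points with cells thinned. The 3 tags of 3DProto2Xia and the 3 of 3DProto1For differed by 1.94 points (exact permutation p = 0.600, adjusted p = 1), and without 3DProto2Xia3 the difference was -0.395 points.

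A change of the share with the treatment letters was not detectable. In 3DFusi the AcMor tags held 0, 1.23 and 1.45%, the last 2 being the highest of the 10 tags and the first the only one at 0, against 0.122, 0.334 and 0.568% in the Vehic tags. The difference was 0.551 points (exact permutation p = 0.400, smallest possible 0.100). The AcCoc tags of 3DFusi lay between 0.113 and 0.732%. All 8 comparisons of treated with Vehic tags had an adjusted exact permutation p of 1, also with same-numbered tags paired, and 4 of them had 2 tags a side, where no p can fall below 0.333.

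How far LHX6 or LHX8 went with GAD differed between arrangements. Among cells without the 4 excluded genes, LHX6 or LHX8 was at 1 or more in 41.6% of 1221 GAD cells of 2DProto3Wu against 10% of 630 cells without GAD, and in 17.5% of 565 GAD cells of 3DProto2Xia3 against 1.75% of 342. Over the other 43 tags the shares were 1.63% of 6857 GAD cells (1.35 to 1.96%) and 1.14% of 15881 cells without GAD (0.981 to 1.32%), with 0.539% in NEUROD2 or NEUROD6 cells without GAD, a class that should lack both genes. That class had only 14 cells in 2DProto3Wu, 2 of them with LHX6 or LHX8 (14.3%, 1.78 to 42.8%), and 19 in 3DProto2Xia3, none with either. In 3DFusi they were 2.50% for both. Median depths were 16475 and 14195 counts in 2DProto3Wu, 9121 and 10524 in 3DProto2Xia3, and 11118, 10890 and 14377 in the other tags. With each cell thinned to 5000 counts and classed again, the shares were 25.9 and 11.5% in 2DProto3Wu, 12.4 and 1.72% in 3DProto2Xia3, and 0.714 and 0.529% elsewhere. Thinning left out 1948 cells with fewer counts than that. Cells that lost their GAD counts moved to the class without GAD, which held 1039 cells of 2DProto3Wu against 630 before. The thinned shares are thus not of the same cells. Without thinning the shares with and without GAD were 1.28 and 0.642% in 3DMono, with overlapping intervals of 0.719 to 2.11% and 0.321 to 1.15%, and 0.532 and 0.232% in 2DCocu (0.214 to 1.09% and 0.124 to 0.397%). In 2DMono they were 0.331 and 0.295%, with 0.721% in NEUROD2 or NEUROD6 cells without GAD, on 3, 4 and 8 cells. LHX6 or LHX8 was thus as frequent without GAD as with it in 3DFusi, and the higher share in 3DFusi than in 2DCocu stands beside a higher LHX share in cells without GAD as well (2.50 against 0.232%).

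**Figure D2:**
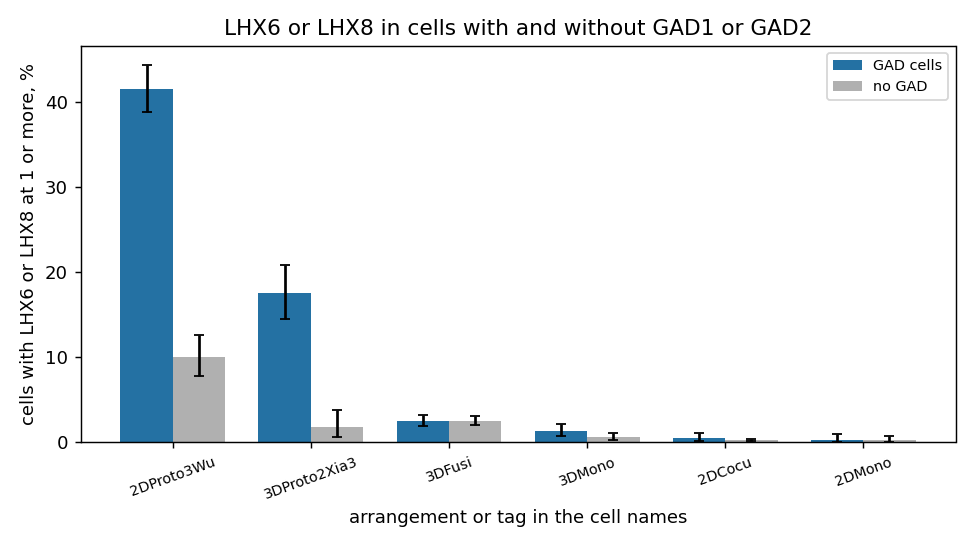
Percent of cells with LHX6 or LHX8 at 1 or more, in cells with GAD1 or GAD2 and in cells with neither, by arrangement or tag; bars are shares and lines 95% exact intervals for counting error. GAD cells exceed cells without GAD in 2DProto3Wu (41.6 against 10%) and 3DProto2Xia3 (17.5 against 1.75%), while in 3DFusi both stand at 2.50%.

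The 3 rich tags differed in which LHX gene chose the cells. In 2DProto3Wu1 the members were 20 with LHX6 only, 42 with both and 116 with LHX8 only, and in 2DProto3Wu2 they were 37, 120 and 165. In 3DProto2Xia3 the numbers were 96, 3 and 0. The 54 MGE-type cells of 3DFusi were 23, 2 and 29, so both genes were seen in the same cell rarely there, unlike in 2DProto3Wu, where 162 of 508 had both. Summed over the members of a tag, the LHX6 level was 42.9, 58.2 and 142 CPM (the counts of a gene scaled to a common total per class and tag, not per gene length) in 2DProto3Wu1, 2DProto3Wu2 and 3DProto2Xia3, and that of LHX8 was 128, 130 and 6.20 CPM. These are the genes of the rule and the values are given with no test.

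**Figure D3:**
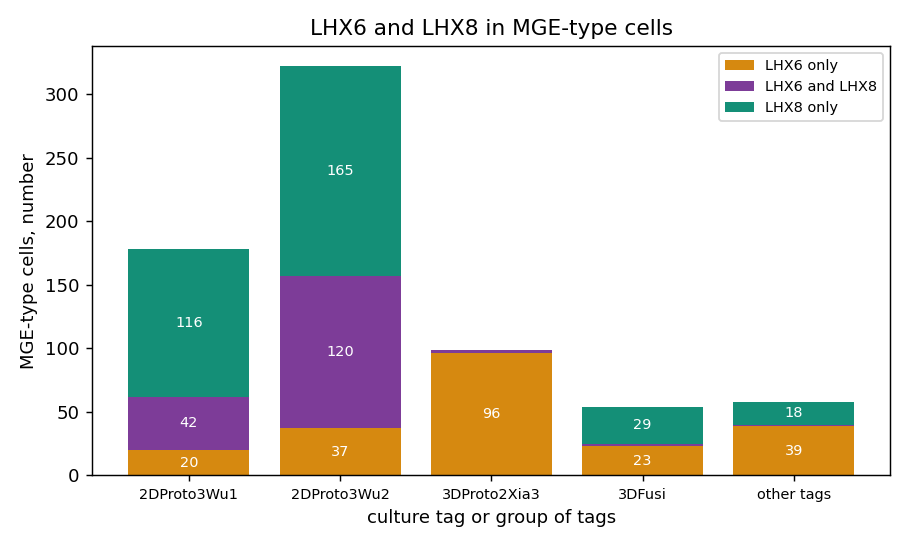
Number of MGE-type cells with LHX6 only, both, or LHX8 only in each rich tag and in groups of other tags. LHX8-only cells are the largest group in both 2DProto3Wu tags (116 and 165), and LHX6-only cells make up 96 of the 99 in 3DProto2Xia3.

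Other genes known from MGE cells were looked at as a check of the label. NKX2-1 was at 1 or more in 5 of 180 MGE-type cells of 2DProto3Wu1 (2.78%, 0.908 to 6.36%) and 12 of 328 of 2DProto3Wu2 (3.66%, 1.90 to 6.30%), in 0 of 99 of 3DProto2Xia3, whose values below 1 summed to 1.18 CPM, and in 0 of the 200 and 0 of the 238 DLX GABAergic cells of 2DProto3Wu. SOX6, a factor that acts after LHX6 in these neurons, was at 1 or more in 87.2, 91.2 and 89.9% of MGE-type cells and in 75.0, 82.4 and 78.8% of DLX GABAergic cells of the same tags. It was also in 83.0, 88.6 and 78.5% of all remaining cells of the tags, with 936 against 935, 1027 against 1136 and 1195 against 750 CPM in MGE-type against remaining cells, so it does not set MGE-type cells apart in 2DProto3Wu. Somatostatin (SST) was found in 3 of 180, 10 of 328 and 3 of 99 cells, neuropeptide Y (NPY) in 1, 0 and 1, and parvalbumin (PVALB) in 0, 0 and 0. With values below 1 included, NKX2-1 stood at 3.36 and 3.68 CPM in MGE-type cells of 2DProto3Wu1 and 2DProto3Wu2. DLX GABAergic cells of these tags had 0.517 and 0.994 CPM and all remaining cells 0.759 and 2.74 CPM. Few MGE-type cells of the 3 tags thus held the neuropeptides or PVALB of mature MGE interneurons, or NKX2-1.

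To ask what else separated MGE-type from DLX GABAergic cells within a tag, counts were summed per tag and class and fitted with edgeR's quasi-likelihood test with the tag as a block, in the 3 tags that had at least 20 cells of both classes: 180 and 200 cells in 2DProto3Wu1, 328 and 238 in 2DProto3Wu2, 99 and 335 in 3DProto2Xia3. Genes that were higher in MGE-type cells of all 3 tags included the axon guidance receptor ROBO3 and the phosphodiesterase PDE1A, and the myosin MYO3A was lower in all 3. PAX7 and the prohormone convertase PCSK1 were lower in both 2DProto3Wu tags and near the floor in 3DProto2Xia3. Of 16076 genes tested, 71 were higher in MGE-type cells (0.442%) and 74 lower (0.46%) at a Benjamini-Hochberg adjusted p under 0.05, and the median log2 fold change of all was 0.00. Median counts per cell were 17018 against 16494, 18027 against 16041 and 8911 against 8662. In bulk sums of this kind, fewer cells expressing a gene and less RNA per cell cannot be told apart.

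ROBO3 had 143 CPM in MGE-type against 17.8 in DLX GABAergic cells of 2DProto3Wu1, 100 against 8.04 in 2DProto3Wu2 and 6.20 against 0.979 in 3DProto2Xia3. Its level was far lower in the organoid tag, but the classes stood apart in each tag, with a log2 fold change of 3.21 ± 0.196 SE and an adjusted p of 0.00325 in edgeR. GALNT14, an enzyme that adds sugars to proteins, had 133 against 21.7, 152 against 21.7 and 346 against 115 CPM, and PDE1A, a calcium-dependent phosphodiesterase, 190 against 79.2, 211 against 64.3 and 304 against 109 CPM. Both were higher in MGE-type cells of every tag and, unlike ROBO3, highest in the organoid tag (log2 fold changes 2.27 and 1.46, edgeR adjusted p = 0.0407 and 0.00448). Among the rest of the 10 largest rises were LINC00290, CD36, HDX, ZNF248, MIR4500HG and ENSG00000258028, which lay between 1.40 and 2.15 on the log2 scale. HDX stood at 2.75 against 2.69 CPM in 3DProto2Xia3, so its difference came from 2DProto3Wu. With tags of at least 10 cells GALNT14 (adjusted p = 0.427 in edgeR), PDE1A (0.0965), CD36, HDX, MIR4500HG and ENSG00000258028 did not pass, and without cells with collagen counts GALNT14 (0.0796), LINC00290 and MIR4500HG did not. HDX, ZNF248 and MIR4500HG were also lost in a thinned run, and CD36 and MIR4500HG with no DLX gene required.

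Among the 10 largest falls were LINC01239, LINC02641, LINC01579 and LINC01201, long noncoding RNAs, PDE7B, CLIC5 and 4 genes described here. MYO3A, an unconventional myosin, had 42.6 against 136, 35.8 against 102 and 35.1 against 100.3 CPM, nearly the same in each tag (-1.60 ± 0.114 SE in log2, adjusted p = 0.00430 in edgeR). PCSK1, which processes prohormones, had 6.09 against 25.3, 10.6 against 46.2 and 0.689 against 1.71 CPM (log2 fold change -2.11, adjusted p = 0.0107 in edgeR). PAX7, a factor of the dorsal neural tube and midbrain, had 11.4 against 44.9, 4.83 against 15.4 and 0 against 0.489 CPM (log2 fold change -1.89, adjusted p = 0.0190 in edgeR). Both PCSK1 and PAX7 were near the floor in 3DProto2Xia3, so their direction in that tag is uncertain. The fourth was COL1A2, a fibrillar collagen of mesenchymal cells, with 12.7 against 102, 10.5 against 35.1 and 2.75 against 5.14 CPM (log2 fold change -2.30, adjusted p = 0.0396 in edgeR). COL1A2 stood at -2.76 without 2DProto3Wu2, -1.62 without 2DProto3Wu1, -0.66 with tags of at least 10 cells (adjusted p = 0.983 in edgeR) and -0.95 with classes called again after thinning (0.567). LINC01201, LINC01579 and LINC02641 did not pass with at least 10 cells, LINC02641 and CLIC5 without cells with collagen counts, and PDE7B and LINC01201 each in a thinned run. The summed level of the mesenchymal list (COL1A1, COL1A2, COL3A1, DCN and LUM) was 22.9 against 262, 19.3 against 69.8 and 14.1 against 14.2 CPM, so both classes held collagen RNA and the comparator of 2DProto3Wu held more. With every cell that had a count of COL1A1, COL1A2 or COL3A1 left out, 73 genes passed, 63 of them among the 145.

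By list, SHH was the 1 of 3 tested MGE origin factors that passed (17.2 against 6.71, 21.9 against 7.82 and 11.0 against 6.36 CPM, log2 fold change 1.25, adjusted p = 0.0492 in edgeR). SHH did not pass in DESeq2 (adjusted p = 0.140), without doublets (0.0597), with tags of at least 10 cells (0.0978), without cells with collagen counts (0.0969) or with thinned cells in kept classes (0.247). GBX1, another factor of ventral forebrain, did not (log2 fold change 2.24, adjusted p = 0.0539 in edgeR). It passed in some alternatives but not in all: in DESeq2 (4.26e-05), without doublets (0.0223), with thinned cells (0.00218 with classes called again, 0.0355 with classes kept), with no DLX gene required (0.0272) and with no low-count filter (3.44e-23). In 3DFusi GBX1 had 1.54 CPM in MGE-type against 4.39 in DLX GABAergic cells. None of 11 interneuron factors passed (median log2 fold change 0.155), nor any of 4 peptides and calcium-binding proteins (0.358), 9 migration receptors (0.325), 5 genes of the GABA machinery (0.00373), 10 GABA-A subunits (0.696), 9 channels (-0.125) or 5 genes of the caudal eminence, CGE (-0.835). Of 8 cholinergic and ventral genes 1 was higher and 1, ZIC2, lower (median 0.264), of 12 glutamate receptor genes GRIK3 was higher (log2 fold change 0.57), and of 9 genes of the lateral eminence and striatum FOXP2 was higher (1.27) and EBF1 lower (-1.58). With tags of at least 10 cells FOXP2 stood at 0.20 (adjusted p = 1 in edgeR), with classes called again after thinning at 0.78 (0.512), and in 3DFusi it had 163 CPM in MGE-type against 268 in DLX GABAergic cells. PAX2, 1 of 3 midbrain and hindbrain inhibitory genes, and HMX3, 1 of 2 hypothalamic genes, were lower (-2.22 and -3.11), HMX3 at -4.74 without 2DProto3Wu2 and -2.34 without 2DProto3Wu1, with PAX2 at 8.58 against 37.9, 2.95 against 16.1 and 1.38 against 1.22 CPM. HMX3 passed the low-count filter only through the sums of DLX GABAergic cells, so its call as lower was partly set by that filter. The adjusted p-values of GRIK3, ZIC2, FOXP2, EBF1, PAX2 and HMX3 in edgeR lay between 0.0175 and 0.0496. In DESeq2 GRIK3 and ZIC2 did not pass (0.152 and 0.110), with tags of at least 10 cells GRIK3, ZIC2 and EBF1 did not (0.359, 0.140 and 0.0978), without cells with collagen counts GRIK3 and EBF1 did not (0.130 and 0.352), in 1 of the thinned runs each GRIK3 and EBF1 did not (0.130 and 0.183), and with no DLX gene required HMX3 did not (0.0619). This fit has 2 residual degrees of freedom and rests on both 2DProto3Wu tags: without either, no gene passed in edgeR, although 893 and 899 had an unadjusted p under 0.05.

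**Figure D4:**
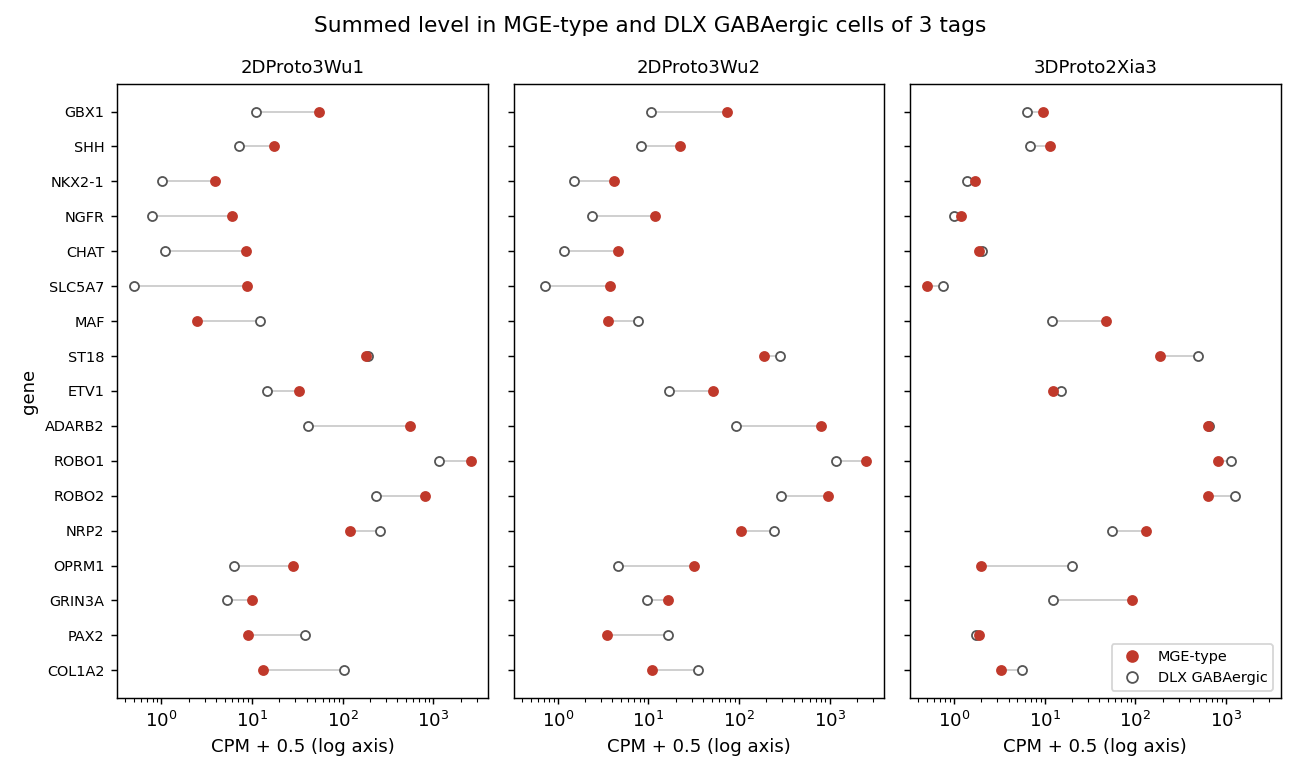
Summed level in CPM, with 0.5 added and on a logarithmic axis, of 17 list genes in MGE-type (filled) and DLX GABAergic cells (open) of 2DProto3Wu1, 2DProto3Wu2 and 3DProto2Xia3, 1 panel per tag. GBX1 and SHH lie higher in MGE-type cells in all 3 panels, whereas OPRM1, ADARB2 and ROBO2 do so in both 2DProto3Wu panels and not in 3DProto2Xia3.

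The 2DProto3Wu tags, fitted by themselves, gave far more calls, among the higher ones 7 of the 11 tested cholinergic and ventral genes. Some of these 7 passed the low-count filter only through the sums of MGE-type cells. Of 16577 genes tested, 958 were higher in MGE-type cells (5.78%) and 1105 lower (6.67%) in edgeR, and the median log2 fold change of all was 0.00. This fit was chosen after the data were seen, has 1 residual degree of freedom and compares 2 tags; DESeq2 called 565 genes. The largest rises among abundant genes were of CDH9, a cadherin (92.2 against 4.39 and 59.1 against 5.59 CPM, log2 fold change 3.82), RUNX1T1, a transcriptional corepressor (435 against 31.7 and 412 against 43.3 CPM, 3.44), C5orf64, MGAT4C (153 against 16.3 and 185 against 15.2 CPM, 3.39), ADARB2, ROBO3, FIGN, TMEFF2, GALNT14 and ENSG00000271860. The largest falls were of ABCA13, PCSK5, MAMDC2-AS1, TFAP2B (5.54 against 43.6 and 6.71 against 30.4 CPM, -2.54), COL1A2, LINC01239, LINC02641, DMRTA1, PAX2 and LAMA2. Without cells with collagen counts, MAMDC2-AS1 turned to 0.31, and ABCA13 and LAMA2 no longer passed, at -0.42 and -0.08 on the log2 scale. That run also holds fewer cells, and the part of collagen-positive cells in these falls was not tested further. C5orf64 and MAMDC2-AS1 did not pass in DESeq2 (0.0585 and 0.403), nor did TFAP2B with classes called again after thinning (0.138).

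Of the factors of MGE origin, 3 of 4 tested rose and 1 fell in 2DProto3Wu, with a list median of 1.79 on the log2 scale. GBX1 had 54.8 against 10.6 CPM in the first tag and 73.3 against 10.3 in the second (2.58 ± 0.178 SE in log2, adjusted p = 1.8e-11 in edgeR), and it was at 1 or more in 41.1 and 50.0% of MGE-type cells against 15% and 14.3% of DLX GABAergic cells. SHH rose by 1.38, with 0.0765 for its adjusted p in DESeq2 and 0.0752 with thinned cells in kept classes. NKX2-1 was near its detection limit, at 3.32 against 0.516 and 3.62 against 0.894 CPM (log2 fold change 2.19, adjusted p = 0.00747 in edgeR). It was not tested in the fit of 3 tags and passed the low-count filter here only through the sums of MGE-type cells. The count of 3 of 4 and the list median were thus partly set by that filter. SIX3, a factor of the anterior and lateral ventral forebrain, fell by 0.96 on the log2 scale.

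The cholinergic and ventral list had 7 of 11 tested genes higher and 2 lower, with a median log2 fold change of 1.68. CHAT, SLC5A7 and NGFR were not tested in the fit of 3 tags. Here they passed the low-count filter only through the sums of MGE-type cells, so the count of 7 and the median were partly set by that filter. NGFR, the low-affinity neurotrophin receptor, had 5.54 against 0.258 and 11.3 against 1.79 CPM (log2 fold change 2.95, adjusted p = 1.53e-05 in edgeR). CHAT, which makes acetylcholine, had 8.30 against 0.516 and 4.16 against 0.670 CPM (log2 fold change 3.21, adjusted p = 6.11e-05 in edgeR). It was seen in 8 of 180 and 19 of 328 MGE-type cells, 4.44 and 5.79%, against 1.00 and 0.840% of DLX GABAergic cells; NEUROD2 or NEUROD6 cells without GAD, pooled over all tags at a median of 14380 counts, had it in 5.19%, a level that the share in MGE-type cells does not exceed beyond counting error, while DLX GABAergic cells of the same tags lie below it. SLC5A7, the choline transporter, was in 7 of 180 and 8 of 328 cells against 0 of 200 and 1 of 238, and in 0.248% of the NEUROD cells. CRABP1, ANGPT2 and ACHE also rose (2.49, 1.68 and 0.89), and ZIC2 and ZIC4 fell (-1.13 and -0.65), while SLC18A3, the vesicular acetylcholine transporter, was too low to test. ACHE did not pass in DESeq2 (adjusted p = 0.792), without doublets (0.0527) or without cells with collagen counts (0.184), and ZIC4 did not in DESeq2 (0.626), the thinned runs (0.232 and 0.162) or without collagen cells (0.0538).

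Among interneuron factors in 2DProto3Wu 2 of 11 rose and 2 fell (median 0.162). ETV1 had 32.7 against 14.2 and 50.8 against 16.3 CPM (log2 fold change 1.41, adjusted p = 1.3e-06 in edgeR). MAF, known from SST and PVALB interneurons, had 1.94 against 11.6 and 3.09 against 7.15 CPM (-1.78, adjusted p = 0.000978 in edgeR), and ST18 fell by 0.40. ST18 was at -0.39 in DESeq2 (adjusted p = 0.302), -0.0020 with classes called again after thinning (0.999), -0.29 with classes kept (0.128) and -0.13 with no DLX gene required (0.416), so its fall rests on the settings. Of 4 peptides and calcium-binding proteins tested only CALB2 rose (2.08, median 0.421). CALB2 passed the low-count filter here only through the sums of MGE-type cells, so its call as higher was partly set by that filter.

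Guidance and migration receptors split, 3 of 9 higher and 3 lower (median 0.0987). ROBO2 had 799 against 235 and 951 against 293 CPM (1.69 ± 0.0750 SE in log2, adjusted p = 3.09e-15 in edgeR), ROBO1 rose by 1.09 and EPHA5 by 1.15. The semaphorin co-receptors NRP2 (119 against 256 and 104 against 245 CPM, -1.22) and NRP1 (-0.55) and the netrin receptor UNC5C (-2.06) were lower. ERBB4, the neuregulin receptor of migrating interneurons, had 626 against 787 and 715 against 465.5 CPM and turned in direction between the tags.

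Receptor genes changed in both directions. Of 10 GABA-A subunits 6 rose, among them GABRA4 by 2.77, GABRA2 by 1.93, GABRB2 by 1.16 and GABRB1 by 1.10, and 3 fell, among them GABRA5 (-1.25) and GABRG3 (-0.79), with a list median of 0.908. Of 12 glutamate receptor genes 4 rose, GRIN2A most, with 49.8 against 10.8 and 65.5 against 14.3 CPM (2.15), and 3 fell (median 0.0395). The 3 that fell were GRIA4, GRIA2 and GRIN2B. Of the 6 GABA-A subunits that rose, some, among them GABRA4, passed the low-count filter only through the sums of MGE-type cells. Among the genes that lost their call in DESeq2 were GRIN3A, GRIA3 and GRIA2 (adjusted p = 0.785, 0.739 and 0.0638), and GABRA5 did not pass without cells with collagen counts (0.0620). Among the drug targets OPRM1, the mu-opioid receptor through which morphine acts, had 28.0 against 5.68 and 31.4 against 4.24 CPM (2.55 ± 0.238 SE in log2, adjusted p = 5.51e-09 in edgeR) and DRD2, a dopamine receptor, 11.4 against 0.774 and 6.18 against 2.01 CPM (2.46), 2 of 6 tested (median 0.290). DRD2 passed the low-count filter here only through the sums of MGE-type cells, so the count of 2 was partly set by that filter. OPRM1 was at 1 or more in 17.8 and 20.7% of MGE-type cells and 3.50 and 4.202% of DLX GABAergic cells. None of 3 immediate early genes passed (median -0.270).

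Markers of other GABAergic origins split, and those of other cell types were lower or did not pass. In the CGE list ADARB2 rose (548 against 40.5 and 808 against 91.4 CPM, 3.36) and PROX1 fell (-1.69), 2 of 5 (median -0.387). In the list of the lateral eminence and striatum RARB, FOXP2, DRD2 and TSHZ1 rose and MEIS2, EBF1, SIX3 and FOXP1 fell, 8 of 9 (median 0.303). PAX2 and LHX5 of 3 midbrain and hindbrain genes, HMX3 of 3 hypothalamic, EMX1 and SLC17A6 of 3 excitatory, VIM, NES and SLC1A3 of 5 radial glia, SLC1A2 of 2 astrocyte and COL1A2 of 3 mesenchymal genes fell, and none of these rose. PROX1, LHX5, HMX3 and EMX1 passed the low-count filter here only through the sums of DLX GABAergic cells. DRD2 passed it only through those of MGE-type cells. The counts of falls and rises in these lists were thus partly set by that filter. In DESeq2 TSHZ1 (adjusted p = 0.758), HMX3 (0.0930), NES (0.117), SLC1A3 (0.118) and SLC1A2 (0.489) did not pass. In thinned runs TSHZ1 (log2 0.05 with classes called again), FOXP2 (0.158 and 0.278 for its adjusted p), RARB (0.0662), PAX2 (0.391), COL1A2 (0.0622), NES and SLC1A2 did not. SLC17A6 was lost with other size factors (0.0507) and without doublets (0.0623). Without cells with collagen counts FOXP1, SLC1A3, EBF1, TSHZ1, HMX3, SLC17A6, SLC1A2 and VIM no longer passed. GABRA2 then had an adjusted p of 0.321 in edgeR.

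Whether the class difference in 3DProto2Xia3 differed from that in 2DProto3Wu was tested as an interaction in an edgeR fit of the 3 tags. Protocol, format and the 1 organoid tag cannot be told apart. The interaction fit has 1 residual degree of freedom. Its errors and p-values measure only the spread between the 2 tags of 2DProto3Wu, with none between organoid tags. Of 16076 genes, 401 had a higher (2.49%) and 244 a lower class difference in 3DProto2Xia3 (1.52%), with a median of -0.03 for all. OPRM1 had the lowest value among the named and list genes, with 1.38 against 19.6 CPM in 3DProto2Xia3 where both 2DProto3Wu tags had it higher in MGE-type cells (log2 difference -6.35 ± 0.636 SE, adjusted p = 3.05e-08 in edgeR). It was detected in 2 of 99 MGE-type and 23 of 335 DLX GABAergic cells there. ADARB2 stood at 628 against 644 CPM (-3.40) and ROBO2 at 637 against 1272 (-2.68), both of them near even or lower in MGE-type cells of this tag and higher in those of both 2DProto3Wu tags. MGAT4C, CSMD3 and TMEFF2 followed the same pattern, with -3.55, -2.48 and -2.46.

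In the other direction, MAF had 46.8 against 11.5 CPM in 3DProto2Xia3 and was lower in MGE-type cells of both 2DProto3Wu tags (log2 difference 3.79 ± 0.482 SE, adjusted p = 6.03e-06 in edgeR). NRP2 stood at 130 against 54.8 CPM (2.46), GRIN3A, a glutamate receptor subunit, at 92.3 against 11.7 (2.14), and GRIA1 at 1391 against 454 (1.49). By list, 1 of 11 interneuron factors, MAF, was higher than in 2DProto3Wu and 3, among them ST18 and ETV1, were lower (median 0.149), 3 of 9 migration receptors were higher and 3 lower (0.652), 4 of 12 glutamate receptors were higher and 1 lower (0.331), and GABRG3 was higher and GABRB1 and GABRA4 lower among 10 GABA-A subunits (-1.23). ERBB4, ROBO3 and SHH did not differ detectably (edgeR adjusted p = 0.845, 0.853 and 0.672). DESeq2 called 95 genes here, and with tags of at least 10 cells of each class, which adds 3DFusiAcMor3 and 3DFusiAcMor4, 55 passed in edgeR. OPRM1 and CSMD3 were among those 55, while ADARB2 (adjusted p = 0.120), ROBO2 (0.0632), MGAT4C (0.351), TMEFF2 (0.0657), MAF (0.396), NRP2 (0.484), GRIN3A (0.775), GRIA1 (0.975, at 0.32 on the log2 scale) and ST18 (0.711) were not. ST18 and GABRB1 also did not pass in DESeq2 (0.216 and 0.511), GABRA4 and ETV1 without doublets (0.129 and 0.0792), and GABRG3 was at -0.37 with classes called again after thinning (0.739).

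Apart from the difference to their neighbours, MGE-type cells of the 3 tags had unlike levels, given without a test since a single organoid tag is set against 2 flat ones. ERBB4 stood at 6689 CPM in 3DProto2Xia3 against 626 and 715 in 2DProto3Wu, ZEB2 at 526.2 against 64.2 and 64.2, and EGR1, an immediate early gene, at 397 against 15.5 and 12.5. NR2F2 and PROX1, known from the CGE, stood at 90.2 and 78.5 CPM in 3DProto2Xia3 and at no more than 2.55 in 2DProto3Wu. ZIC1, a factor of the septum and basal forebrain, was at 13.1 against 156 and 216 CPM. In DLX GABAergic cells, too, 3DProto2Xia3 lay above both 2DProto3Wu tags for ERBB4, ZEB2, EGR1, NR2F2 and PROX1 and below both for ZIC1 (3970 against 787 and 465.5 CPM for ERBB4, 15.2 against 173 and 211 for ZIC1), so these differences between organoid and flat tags were not limited to MGE-type cells.

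Within 2DProto3Wu, members with LHX6 only (20 and 37 cells) were compared with members with LHX8 only (116 and 165 cells), again with edgeR and the tag as a block. LHX6-only cells were higher in ERBB4, SOX6 and PLXNA4, among other genes of the migration receptor and interneuron factor lists, and lower in RELN and GRIN2A. Of 12722 genes tested, 155 were higher (1.22%) and 174 lower (1.37%) in LHX6-only cells, with a median log2 fold change of -0.01 for all. The fit compares 2 tags with 1 residual degree of freedom, LHX6-only cells were shallower (12601 against 16765 and 14219 against 17473 median counts), the part of depth was not tested beyond thinning, and DESeq2 called 50 genes.

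ERBB4 had 1747 CPM in LHX6-only against 546 in LHX8-only cells of the first tag and 2268 against 510 in the second (1.97 ± 0.188 SE in log2, adjusted p = 3.79e-22 in edgeR), and a count of it was found in 80.0 and 75.7% against 50.0 and 44.8% of cells. SOX6 had 1177 against 751 and 1929 against 720 CPM (1.10 ± 0.186 SE in log2, adjusted p = 9.39e-07 in edgeR). Both genes stood apart in each tag. PLXNA4, a semaphorin receptor, ROBO2 and ROBO1 were the other 3 of 8 migration receptors that passed (1.51, 1.203 and 0.96), none was lower, and the list median was 0.426. Of 11 interneuron factors 5 were higher, among them SOX6, ETV1 (1.38), ZEB2 (0.90) and ST18 (0.88), and none lower, with a median of 0.743. ETV1, ZEB2 and ST18 did not pass in DESeq2 (adjusted p = 0.450, 1 and 0.444), and ZEB2 and ST18 did not with thinned cells (0.367 and 0.177).

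The largest rises were of CALB2, the calcium-binding protein calretinin, with 19.0 against 2.49 and 34.7 against 1.26 CPM (3.97 ± 0.701 SE in log2, adjusted p = 2.99e-06 in edgeR), ANGPT2, a vascular growth factor (11.4 against 2.08 and 55.2 against 2.83 CPM, 3.80), L3MBTL4, MORN5, FGFR2, a fibroblast growth factor receptor (121 against 10.4 and 72.6 against 22.0 CPM, 2.55), GALNT14 (384 against 73.5 and 436 against 68.5 CPM, 2.59), NXPH1, VSTM2B-DT, ENSG00000250237 and ENSG00000287383. NXPH1, a secreted neurexin ligand, had 452 against 174 and 1522 against 122 CPM, and it was called in edgeR (adjusted p = 8.75e-31) but not with other size factors (0.788), in DESeq2 (0.543), with no filter (0.375) or with thinned cells (0.714). CALB2, ANGPT2, L3MBTL4, MORN5 and ENSG00000250237 passed the low-count filter only through the sums of LHX6-only cells. Their place among the rises was thus partly set by that filter. The LHX6-only sum of 2DProto3Wu1 held 263787 counts in all, so 19.0 CPM of CALB2 and 11.4 of ANGPT2 there stand for few counts. SLC32A1, which loads GABA into vesicles, did not pass, at 30.4 against 14.1 and 26.8 against 10.05 CPM.

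LHX8-only cells were higher in CDH18, a cadherin, with 181 CPM against 0 in LHX6-only cells of the first tag and 63.5 against 7.89 in the second, and in FLRT2 (133 against 19.0 and 55.9 against 3.16), UNC13C (73.5 against 0 and 43.7 against 4.74), ZNF804B, DGKG, LINC01201, ENSG00000283415 and ENSG00000288016. CDH7 (33.6 and 14.1 CPM) and LINC02046 (24.5 and 29.9 CPM) were at 0 in LHX6-only cells of both tags. The sum of 2DProto3Wu1 held 263787 counts in LHX6-only against 2410465 in LHX8-only cells. A value of 0 there rests on few expected counts and does not show absence. CDH7, LINC02046, ZNF804B, UNC13C, DGKG and LINC01201 passed the low-count filter only through the sums of LHX8-only cells. CDH18, ZNF804B, UNC13C and ENSG00000288016 lost their calls in DESeq2, with adjusted p-values of 0.725, 0.191, 0.0505 and 0.536. RELN, a secreted guidance protein, had 89.6 against 19.0 and 31.4 against 12.6 CPM in LHX8-only against LHX6-only cells, a log2 fold change of -1.69 for LHX6-only cells (edgeR adjusted p = 0.00845, DESeq2 0.787). Glutamate receptor genes split, with GRIK3, GRIA3, GRIA1 and GRIA4 higher in LHX6-only cells (1.05, 0.93, 0.89 and 0.65) and GRIN2A, GRIK2, GRIK1 and GRIA2 lower (-2.12, -1.07, -0.92 and -0.88), 8 of 12 (median -0.657). Of 7 GABA-A subunits GABRB1 and GABRB2 were lower (-1.35 and -1.40, median -0.380), and of 9 genes of the lateral eminence and striatum BCL11B was higher (0.93) and FOXP1 lower (-1.47). In DESeq2 GRIA1, GRIA2, GRIA3, GRIA4, GRIK1, GRIN2A, GABRB1, GABRB2, BCL11B and FOXP1 did not pass (adjusted p from 0.0942 for GRIA1 to 1), and with thinned cells GRIN2A (0.273), GRIA3, GRIA4, GRIK1, both GABA-A subunits, BCL11B and FOXP1 did not.

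**Figure D5:**
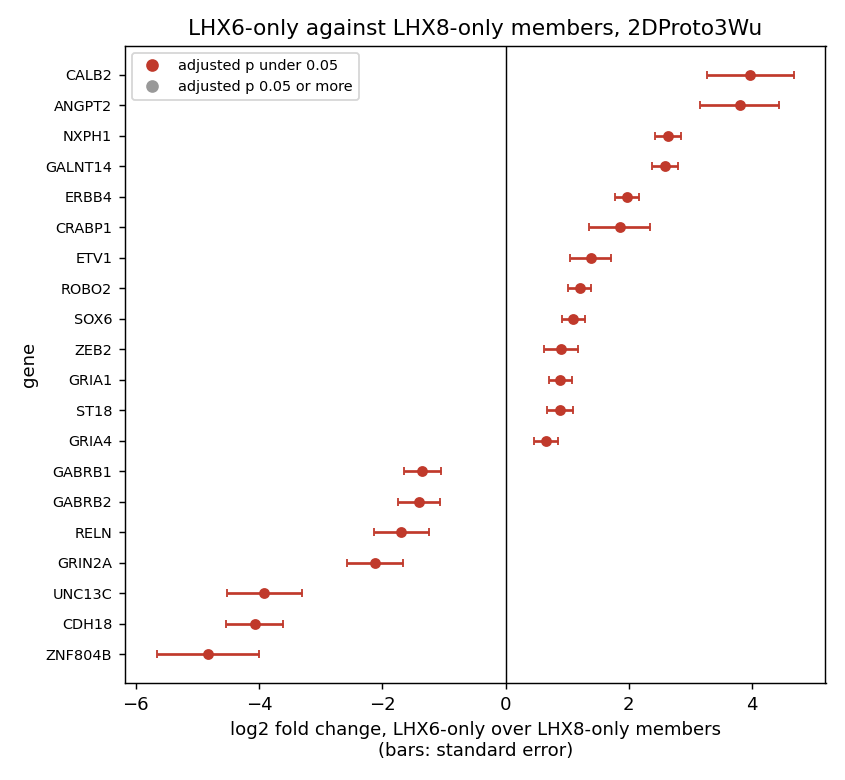
Log2 fold change with standard error of 20 list and named genes between LHX6-only and LHX8-only members of 2DProto3Wu, all 20 with an edgeR adjusted p under 0.05 (red). CALB2 (3.97), ERBB4 (1.97) and SOX6 (1.10) lie on the LHX6-only side and RELN (-1.69) and GRIN2A (-2.12) on the LHX8-only side.

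Genes of ventral forebrain and of cholinergic neurons mostly did not pass between LHX6-only and LHX8-only cells. GBX1 had 22.8 against 39.8 and 41.0 against 66.9 CPM (log2 fold change -0.67, adjusted p = 0.614 in edgeR). Of 9 such genes tested ANGPT2 and CRABP1 were higher and none lower, while the list median was -1.11. CRABP1 did not pass in DESeq2 (adjusted p = 0.920) or with thinned cells (0.106). ANGPT2 passed the low-count filter only through the sums of LHX6-only cells. CHAT was seen in 0 of 20 and 1 of 37 LHX6-only cells and in 7 of 116 and 11 of 165 LHX8-only cells, and SLC5A7 in 0 and 0 against 6 and 6, both too low for the fit. GBX1 was most often seen in cells with both LHX genes, 66.7 and 65.0%, and SHH was too, with 40.5 and 42.5% against 25.0 and 32.4% in LHX6-only and 13.8 and 23.6% in LHX8-only cells; cells with both were also the deepest, at a median of 17959 and 20425 counts.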

How the data were processed

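Single-cell RNA was measured with a split-pool barcoding kit in H1-derived cultures, and the 8 sublibraries were deposited as 1 matrix of 60286 genes by 43693 cells. The authors deposited estimated counts (expected counts per gene and cell), not scaled and partly not whole; the submitters' processing notes name Salmon 1.7.0, alevin, Seurat 4.1.1 and hg38, and how strand was used is not stated, so antisense and overlapping genes are uncertain. Cells were read into culture tags from their names, and 0 value columns were left unused. The members and gene lists were chosen with earlier results of these data known.

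Cells were classed by the values given in the report. Shares were compared over tags with two-sided exact permutation tests, adjusted together over 14 tests by Benjamini-Hochberg. For genes, counts were summed per tag and class, rounded to whole numbers, filtered with filterByExpr, scaled with TMM and tested with edgeR 4.0.16 (robust glmQLFit and glmQLFTest, tag as block, R 4.3.3) at an adjusted p under 0.05; genes of the class rules were left out. CPM scale the counts of a class in a tag to a common total. Doublets were scored against simulated pairs, with 100 neighbours on 30 components of 2000 variable genes, and kept in the main tests. The 2 comparisons among tags without treatment letters, the fit of the 2DProto3Wu tags alone, the runs without collagen counts and the thinned runs that keep the classes were chosen after seeing the data.

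Named genes are those of 23 lists and, per comparison, the 10 largest rises and 10 largest falls that passed, had a mean of at least 20 CPM in the higher class and moved alike in every tag; some genes of these sets are not reported here. Planned gene tests of members by treatment, between 3-D and 2-D tags and between 3DFusi and 3DMono were not made, because only 3 tags held at least 20 members. MGE-type cells of both 2DProto3Wu tags differed by more than counting noise (chi-square per degree of freedom 6.80 over 17290 genes), so they are not 1 library deposited again, which does not show that they are separate cultures. On simulated counts the class comparison found 73% of genes changed by 2-fold and 99% changed by 4-fold (16114 genes, 5 false calls), the 2DProto3Wu fit 73 and 95% (16579 genes, 9 false calls), the interaction 22 and 69% (16156 genes, 3 false calls) and the LHX6 against LHX8 comparison 29 and 69% (12869 genes, 3 false calls). The simulation gave all genes the same spread and a changed gene the same fold in each tag where it was changed. The real data do not share that setting, so these rates hold only under it. Alternatives covered count thresholds, thinning to 5000 counts, doublets, size factors, DESeq2 1.42.0, the low-count filter, the comparator, 10 cells per tag and class, and each tag left out.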

Additional observations from a re-analysis of the deposited data

Results flagged for a closer look

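In 3 groups of tags there was a tag far from the others in its share of MGE-type cells. 2DCocuAcCoc3 had 0.116% (1 cell), 2DCocuAcMor4 had 0.218% (3 cells) and 2DMonoVehic1 had 0.153% (3 cells), while every other tag of 2DCocu AcCoc, 2DCocu AcMor and 2DMono was at 0. Each gap rests on 1 to 3 cells. The test was given to 7 groups. Its chance rate of about 1 in 20 groups does not hold here, because any single tag above 0 is marked when all others are at 0, and the exact intervals of these tags overlap those of the others.

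The difference between MGE-type and DLX GABAergic cells was not the same in 3DProto2Xia3 and in 2DProto3Wu for 645 genes by edgeR's interaction test. Among list genes the log2 class difference was lower in 3DProto2Xia3 for OPRM1 (-6.353), ADARB2 (-3.399), ROBO2 (-2.684), GABRA4 (-2.516), CALB2 (-2.368), GBX1 (-1.972), PAX6 (-1.78), ETV1 (-1.757), ROBO1 (-1.561), GRIN2A (-1.548), EPHA5 (-1.274), GABRB1 (-1.102), ST18 (-1.007) and RARB (-1.003). It was higher there for MAF (3.79), NRP2 (2.46), GRIN3A (2.141), VIM (1.921), UNC5C (1.892), FOXP1 (1.743), SLC1A3 (1.697), GRIA1 (1.489), GABRG3 (1.055), EGR1 (1.04), MEIS2 (1.034), GRIA4 (1.008), GRIN2B (0.9503) and NRP1 (0.8717). All of these values set 1 organoid tag against 2 flat tags, and protocol, format and tag cannot be told apart.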

How the results depend on the processing

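The share difference between 3DFusi and 2DCocu passed under every alternative but 1 (0.166 points, adjusted p = 0.0612, with 2 or more counts of GAD and LHX), and its size fell to 0.2503 points with cells thinned to equal depth. With 2 or more counts and with thinned cells, 3DFusi minus 3DMono was 0.158 and 0.151 points, and with 2 or more counts 3DProto2Xia minus 3DProto1For was 1.17 points. That between 2DCocu and 2DMono turned to -0.00499 points with thinned cells, and leaving out single tags gave values down to -0.000133 without 2DCocu AcMor replicate 4 and -0.0112 without 2DMono Vehic replicate 2. With single tags left out it ranged from -0.0112 to 0.0654 points, and 3DProto2Xia minus 3DProto1For from -0.395 (without 3DProto2Xia replicate 3) to 3.28. The range of 3DFusi minus 3DMono was 0.2145 (without 3DFusi AcMor replicate 4) to 0.5756 points (without 3DFusi AcMor replicate 1). With same-numbered tags paired (replicate block), 0 of the 8 treatment comparisons passed, as without the block. The numbers are not said to mark shared cultures. No paired analysis was possible for the gene tests by treatment because no treated tag held 20 members.

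The 145 calls between MGE-type and DLX GABAergic cells became 958 without a low-count filter, 36 with tags of at least 10 cells, 232 with thinned cells in kept classes, 223 with no DLX gene required, 73 without cells with collagen counts, 2063 in the 2-D tags alone or without 3DProto2Xia replicate 3, and 0 without 2DProto3Wu replicate 1 or 2. The share of higher calls, 49% there, was 33.3% with at least 10 cells, 38.1 and 38.8% with thinned cells and 34.5% with no DLX gene required. In 2DProto3Wu alone the 2063 calls became 565 with DESeq2, 778 and 1281 with thinned cells (classes called again, or kept) and 1280 without collagen cells, and MAMDC2-AS1 turned to 0.31. The 645 interaction calls became 95 with DESeq2, 55 with at least 10 cells, 357 without doublets, and 261 and 375 with thinned cells; with classes called again UNC5C turned to -6.26, GABRG3 to -0.37, ENSG00000289426 to -1.62 and HS3ST2 to -2.33. The share of higher calls, 62.2%, was 50% with no filter, where the median of all genes moved to -0.242, and 51.3% with classes called again. The 329 calls between LHX6-only and LHX8-only cells became 50 with DESeq2 and 124 with thinned cells in kept classes, and the share of higher calls, 47.1%, was 30.1% with no filter (median of all genes -0.347). Of the named and listed genes called there, 12 of the 36 with a DESeq2 value kept their call, and 24 of 27, 47 of 64 and 25 of 34 did in the other comparisons. The cause of these changes was not tested. Leaving out a tag was not run for the last 3 fits, which then keep no residual degree of freedom, nor were LHX6-only cells called again after thinning, since 16 remained in 2DProto3Wu1.

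Depth limits genes of a few CPM, such as NKX2-1, CHAT and SLC5A7, to counts in single cells, and 0 MGE-type cells allow a share of up to 1.16% in the smallest tag without any (upper exact bound).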

Other observations

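The 112 MGE-type cells outside 2DProto3Wu and 3DProto2Xia3 had higher levels of collagen and choroid plexus genes than the 2733 DLX GABAergic cells of all 43 tags, 15 of which held no MGE-type cell. Their summed COL1A1 level was 355 CPM against 120 in those DLX GABAergic cells and 5.89, 5.98 and 4.47 in MGE-type cells of the 3 rich tags, and in 3DFusi it was 578 against 132. TTR, the main secreted protein of choroid plexus, stood at 105 against 13.2 CPM, CLIC6 at 45.1 against 3.67, and CALB1, the calcium-binding protein calbindin, at 49.3 against 7.25. Of the 112 cells 62 had LHX6 only, 3 both genes and 47 LHX8 only. These are pooled values over 43 tags, with no test.

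MORN5, among the largest rises in LHX6-only cells, had 45.6 against 3.74 CPM in LHX8-only cells of 2DProto3Wu1 and 31.6 against 3.77 in 2DProto3Wu2 (log2 fold change 3.33, edgeR adjusted p = 1.65e-06). It lies beside LHX6 on chromosome 9, 122159908 to 122200088 on the plus strand (GRCh38, GENCODE release 29), and ends 2488 bases before the annotated end of LHX6 on the other strand. LHX6 chose the cells, so a gene beside it is not independent of the choice. MORN5 also passed the low-count filter only through the sums of LHX6-only cells. Whether reads past the end of either gene add to the other was not tested.

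SST, which was rare, was seen in 5 of 37 LHX6-only cells, 5 of 120 cells with both genes and 0 of 165 LHX8-only cells of 2DProto3Wu2, but in 0 of 20, 0 of 42 and 3 of 116 in 2DProto3Wu1, so the order of the subclasses was not the same in the 2 tags.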
